A study of Danio rerio with 121 samples.

Results

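Endothelial genes were followed through zebrafish embryogenesis in 10 transcripts that mark or build the lining of blood and lymph vessels: *etv2*, *kdrl*, *flt1*, *flt4*, *tie1*, *tek*, *cdh5*, *egfl7*, *she* and *aplnrb*. They were chosen by symbol from the 24801 gene symbols of the count table, and all 10 were present. The libraries were 3′ RNA-Seq libraries of whole embryos of the RIKEN wild-type strain RW, with no mutant and no treatment in any group, so that the labelled differences were stage, library set, year and a number used whose meaning is not described. The number used was 50 in the plain libraries except for 10 at 20 ss and 5 at 96 hpf. In the S libraries it was 25 at 6 ss, 20 at 10 ss, 15 at 15 ss and 1 at 96 hpf, and the DrRyu libraries have none. At 20 over 15 ss, 24 hpf over 20 ss, 96 over 72 hpf and 96 over 24 hpf in the plain libraries, and at every S comparison of stages, it differed along with stage, and their parts cannot be told apart. In all, 52 libraries had plain titles, 29 carried an S in the title and 40 had a description that begins with DrRyu. The plain libraries covered the 6-somite stage (6 ss), 15 ss, 20 ss, 24 h postfertilization (hpf), 48, 72 and 96 hpf, with 8 libraries each except for 4 at 15 ss. The S libraries covered 6 ss, 10 ss, 15 ss and 96 hpf, with 8 libraries each except for 5 at 15 ss. The DrRyu libraries covered 20 ss, 24 hpf, 32 hpf, 48 hpf and 72 hpf, 8 libraries at each stage. The labels of the plain and S libraries give 2020 as the year and those of the DrRyu libraries 2021, and what the S stands for is not described. The labels call every library the RNA of a single embryo, whereas the study's methods describe pools of embryos, so a library may hold more than 1 individual. Nothing states that replicate libraries came from separate clutches, and the p-values measure only the spread between these libraries.

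In the embryo, endothelial cells arise from angioblasts of the lateral mesoderm, where the ETS factor Etv2 starts the endothelial programme. Angioblasts then gather into the first artery and vein, and new vessels sprout under vascular endothelial growth factor (VEGF), which is read by the receptors encoded by *kdrl*, *flt1* and *flt4*. The Tie receptors *tie1* and *tek* act in the angiopoietin pathway of vessel remodelling, and the cadherin encoded by *cdh5* holds endothelial cells to each other. All of these cells are a small share of a whole embryo.

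The shallowest library held 866854 counts, the deepest 21646478 and the median one 3129763. The 10 transcripts were read at low counts in most libraries, and that limits what could be called. Summed over all libraries, *etv2* had 17844 counts, *aplnrb* 7924, *tie1* 6339, *cdh5* 6089, *flt4* 6030, *kdrl* 5126, *egfl7* 2974, *tek* 1377, *flt1* 1325 and *she* 118. *etv2*, *flt4* and *aplnrb* had a count in every library. *kdrl* and *cdh5* were at 0 in 4 libraries each, *tie1* in 2, *egfl7* in 6, *flt1* in 25, *tek* in 28 and *she* in 99. All 10 passed the filter for testing, which asked for 1 count in at least 8 libraries. Levels are given as CPM, the counts brought to a common library size with factors from the trimmed mean of M values (TMM). CPM is a share of a whole-embryo library. A lower level can mean fewer endothelial cells, less of the transcript per cell, less of it in other cells, or more RNA of other tissues. These cannot be told apart. A gene is said to have risen or fallen where the edgeR quasi-likelihood test gave a Benjamini-Hochberg adjusted p under 0.05 over all 21638 genes tested. The common fit of all sets gives each gene 1 spread. The DrRyu libraries varied more within groups, so the SE and p of any step or set comparison with them may be too small. Those of tests within the plain or within the S libraries may be too large. A missed threshold there does not show that a gene was unchanged.

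**Figure D1:**
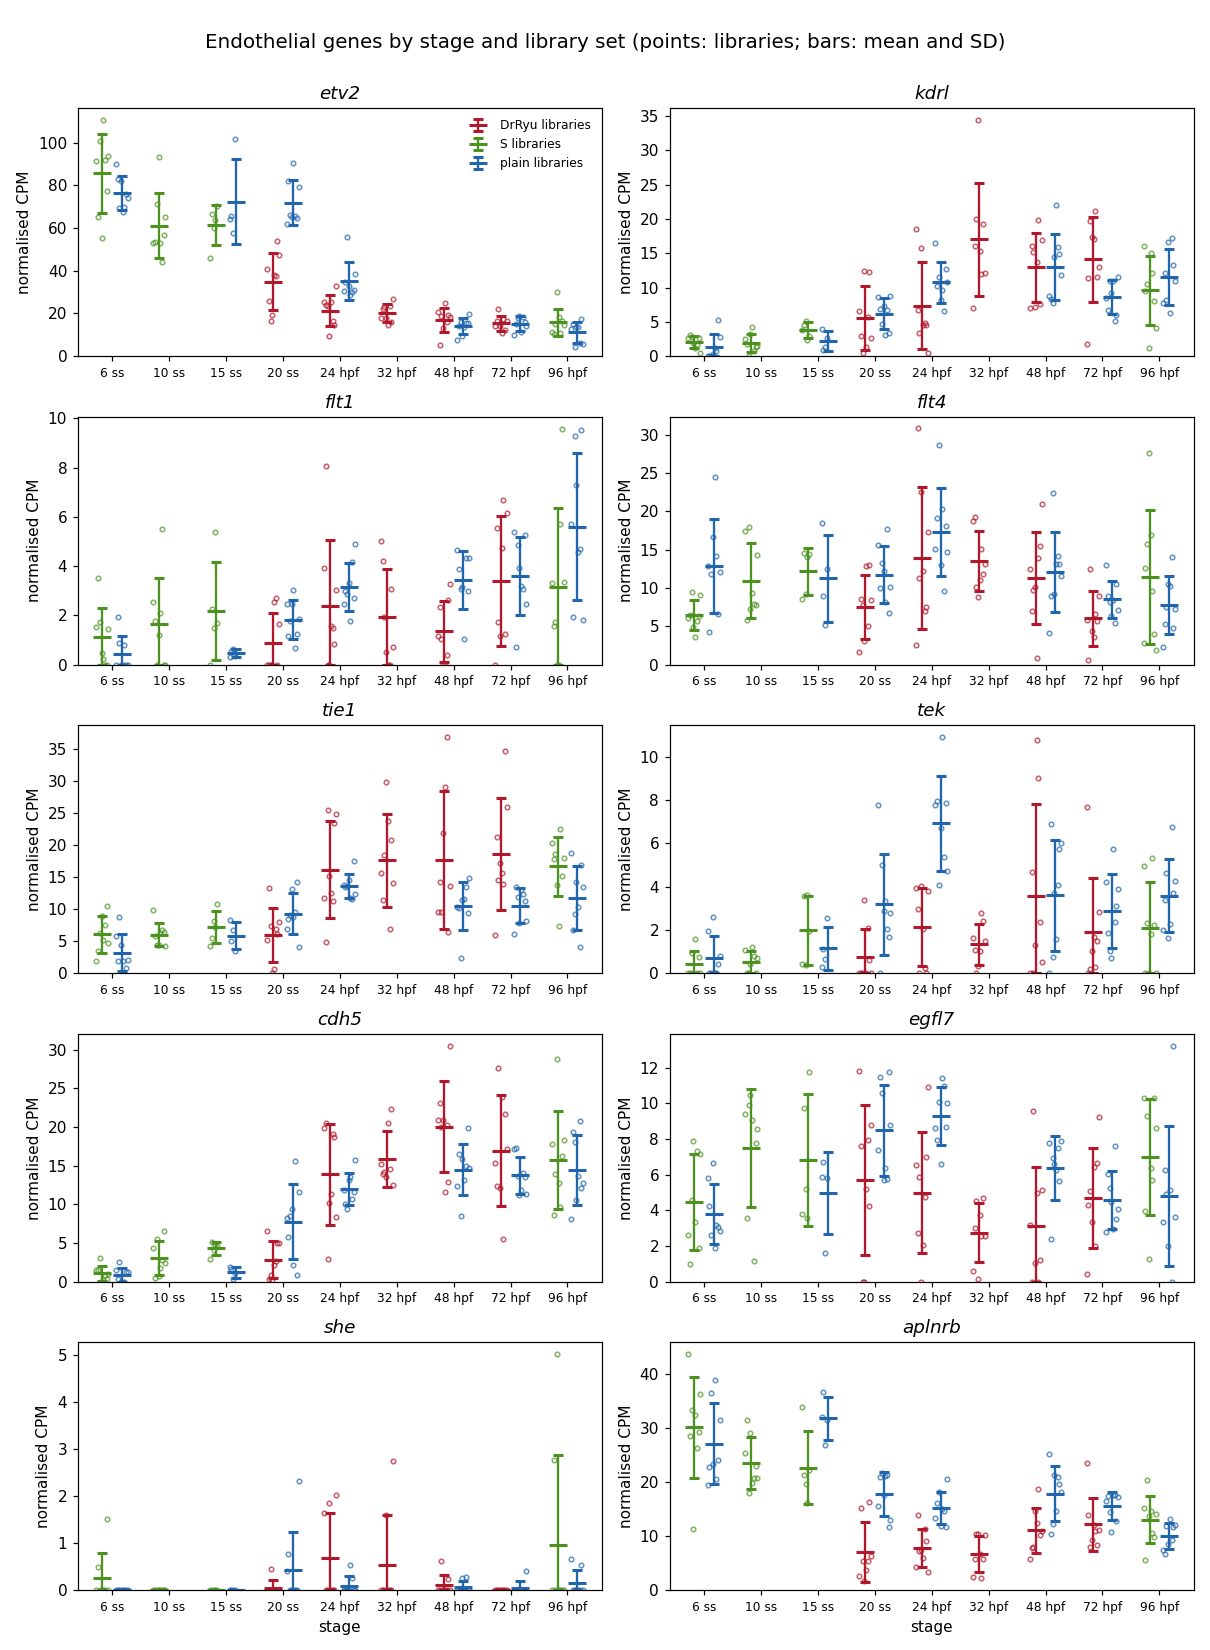
Normalised CPM (y axis, linear) of each endothelial gene at the 9 stages (x axis) in the DrRyu, S and plain libraries. Points are libraries, horizontal bars are group means, and whiskers are 1 SD, cut off at 0. *etv2* lies at 67.6 to 90.1 CPM in the plain libraries at 6 ss and at 4.36 to 17.5 CPM at 96 hpf, *cdh5* runs the other way, and *she* is at 0 in most libraries.

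*etv2*, the early activator of the endothelial programme, was highest at the somite stages and fell in all 3 library sets. In the plain libraries, the mean level was 76.5 ± 7.89 CPM at 6 ss, 72.4 ± 20.0 at 15 ss, 72.0 ± 10.6 at 20 ss, 35.2 ± 8.93 at 24 hpf, 14.1 ± 3.86 by 48 hpf, 15.3 ± 3.34 by 72 hpf and 11.1 ± 4.97 at 96 hpf (SD, n = 8, and n = 4 at 15 ss). No step between the somite stages passed the test for *etv2* in the common fit, and the level dropped in the following steps up to 48 hpf. At 24 hpf the 8 libraries ranged from 28.9 CPM through a median of 31.9 to 56.0 CPM, against 61.8 CPM through 66.0 to 90.7 CPM at 20 ss. No library of one stage reached the other. The log2 fold change was -1.03 (SE 0.19; edgeR, adjusted p = 6.97e-06), or 2.04-fold lower at 24 hpf. A drop followed at 48 hpf, with 7.75 to 19.9 CPM against 28.9 to 56.0 CPM at 24 hpf, again without overlap (log2 fold change -1.30, SE 0.20; edgeR, adjusted p = 2.14e-08). After 48 hpf, neither neighbouring step passed the test.

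In the S libraries, *etv2* averaged 85.8 ± 18.6 CPM at 6 ss, 61.2 ± 15.4 at 10 ss, 61.3 ± 9.44 at 15 ss and 15.9 ± 6.41 at 96 hpf (SD, n = 8, and n = 5 at 15 ss). The decrease of 15 over 6 ss missed the threshold in the common fit. It passed with the S libraries fitted alone, as given below with *cdh5*. All 8 libraries of 96 hpf, at 10.3 to 30.1 CPM, were below the 5 libraries of 15 ss, at 45.9, 66.6, 59.9, 63.8 and 70.4 CPM (log2 fold change -2.02, SE 0.23; edgeR, adjusted p = 4.25e-14). In the DrRyu libraries, the mean was 34.9 ± 13.3 CPM at 20 ss, 21.4 ± 7.45 by 24 hpf, 20.2 ± 4.23 by 32 hpf, 17.0 ± 5.78 by 48 hpf and 15.5 ± 3.54 by 72 hpf (SD, n = 8). The decrease at 24 hpf over 20 ss was 0.73 on the log2 scale (log2 fold change -0.73, SE 0.20; edgeR, adjusted p = 0.00266). Here the groups overlapped, and 2 of the 8 libraries of 24 hpf were under the lowest of 20 ss. With the DrRyu libraries fitted on their own, this decrease missed the threshold (log2 fold change -0.72; edgeR, adjusted p = 0.0534).

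*kdrl*, the main VEGF receptor of zebrafish blood vessels, rose over the same period. In the plain libraries it averaged 1.30 ± 1.86 CPM at 6 ss, 2.21 ± 1.44 at 15 ss, 6.19 ± 2.24 at 20 ss, 10.8 ± 3.00 at 24 hpf, 13.0 ± 4.85 by 48 hpf, 8.65 ± 2.48 by 72 hpf and 11.5 ± 4.05 at 96 hpf (SD, n = 8, and n = 4 at 15 ss). At 24 hpf, the libraries ranged from 6.56 through 10.5 to 16.5 CPM (49 to 140 counts), against 0 through 0.58 to 5.26 CPM (0 to 12 counts) at 6 ss, without overlap. The difference was 8.36-fold (log2 fold change 3.06, SE 0.49; edgeR, adjusted p = 3.73e-08). No single step of the plain libraries passed the test for *kdrl* in the common fit. At 20 over 15 ss, 6 of the 8 libraries of 20 ss lay above all 4 of 15 ss (log2 fold change 1.45, SE 0.57; edgeR, adjusted p = 0.153), and both DESeq2 (adjusted p = 0.0427) and the plain libraries fitted alone (adjusted p = 0.0156) called this step. The one DrRyu step that passed was 32 over 24 hpf. *kdrl* ranged there from 7.03 through 15.7 to 34.5 CPM at 32 hpf, against 0.51 through 4.68 to 18.6 CPM at 24 hpf (log2 fold change 1.22, SE 0.40; edgeR, adjusted p = 0.03). All 8 libraries of 32 hpf were above the median of 24 hpf, and 3 were above its highest library. This call was lost with library totals in place of TMM (edgeR, adjusted p = 0.0534). It was also lost with the DrRyu libraries fitted alone (edgeR, adjusted p = 0.151).

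In the S libraries, *kdrl* averaged 2.04 ± 0.91 CPM at 6 ss, 1.91 ± 1.36 at 10 ss, 3.78 ± 1.14 at 15 ss and 9.59 ± 5.09 at 96 hpf (SD, n = 8, and n = 5 at 15 ss). It rose at 96 hpf over 15 ss (log2 fold change 1.39, SE 0.51; edgeR, adjusted p = 0.0194), with 6 of 8 libraries above all 5 of 15 ss and 1 library, at 1.25 CPM, below them. Without the fourth library of 15 ss the log2 fold change was 1.26 and the adjusted p 0.0556, and with library totals alone it was 1.10 and 0.0706.

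*flt1* encodes a VEGF receptor with a soluble form that traps the ligand. *flt1* was at 0 to 5 counts per library at 6 ss and was read at 10 to 31 counts at 24 hpf in the plain libraries. Those of 24 hpf were also deeper, with totals of 5919077 to 9809464 counts against 1980596 to 2476083 at 6 ss. The levels were 1.76 through 2.93 to 4.92 CPM at 24 hpf, against 0 through 0 to 1.94 CPM at 6 ss, and 7 of the 8 libraries of 24 hpf were above the highest of 6 ss. The rise was 6.64-fold (log2 fold change 2.73, SE 0.86; edgeR, adjusted p = 0.0075), with a 95% interval from 1.06 to 4.41 on the log2 scale. In the S and DrRyu libraries, *flt1* was at 0 in 8 of 29 and 12 of 40 libraries, and it did not pass the test over all stages in either set (edgeR, adjusted p = 0.292 and 0.186).

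*flt4*, the receptor of Vegfc that is known for lymphatic and venous sprouting, had its highest mean at 24 hpf in the plain libraries. The mean of that set was 12.9 ± 6.16 CPM at 6 ss, 11.3 ± 5.69 at 15 ss, 11.7 ± 3.69 at 20 ss, 17.3 ± 5.72 at 24 hpf, 12.1 ± 5.25 by 48 hpf, 8.52 ± 2.41 by 72 hpf and 7.77 ± 3.74 at 96 hpf (SD, n = 8, and n = 4 at 15 ss). The 24 hpf libraries overlapped those of 6 ss, and the difference missed the threshold (log2 fold change 0.43, SE 0.35; edgeR, adjusted p = 0.380). *flt4* fell at 96 over 24 hpf, to 2.35 through 7.42 to 14.0 CPM at 96 hpf, against 9.64 through 16.6 to 28.6 CPM at 24 hpf. All 8 libraries of 96 hpf were under the median of 24 hpf and 5 were under its lowest library (log2 fold change -1.17, SE 0.36; edgeR, adjusted p = 0.00582). With DESeq2, the decrease was 0.81 on the log2 scale (log2 fold change -0.81, adjusted p = 0.0570) and was no longer called. In the DrRyu libraries the mean was highest at 24 hpf (13.9 ± 9.24 CPM) and lowest at 72 hpf (6.03 ± 3.54 CPM; SD, n = 8 each). The test over all 5 stages passed (edgeR, adjusted p = 0.00633), but no DrRyu step of *flt4* was called. The DrRyu libraries of 24 hpf, at 2.61 to 30.8 CPM, spanned those of 32 hpf, at 8.88 to 19.3 CPM. Across the S libraries, which lack 24 hpf, the mean was lowest at 6 ss (6.48 CPM) and highest at 15 ss (12.2 CPM). At 96 hpf they held 1.87 to 27.6 CPM, and the test over all stages did not pass (edgeR, adjusted p = 0.152).

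*tie1*, an orphan receptor tyrosine kinase of endothelial cells, rose in all 3 sets. The plain libraries averaged 3.21 ± 2.91 CPM at 6 ss, 5.88 ± 2.11 at 15 ss, 9.29 ± 3.21 at 20 ss, 13.6 ± 1.90 at 24 hpf, 10.4 ± 3.75 by 48 hpf, 10.5 ± 2.72 by 72 hpf and 11.7 ± 5.01 at 96 hpf (SD, n = 8, and n = 4 at 15 ss). At 24 hpf, the libraries held 11.5 through 13.5 to 17.5 CPM, against 0 through 1.98 to 8.71 CPM at 6 ss, without overlap (log2 fold change 2.07, SE 0.38; edgeR, adjusted p = 2.45e-06). The DrRyu libraries held *tie1* at 4.83 through 13.8 to 25.4 CPM at 24 hpf, against 0 through 6.46 to 13.3 CPM at 20 ss, and 4 of 8 libraries of 24 hpf were above the highest of 20 ss (log2 fold change 1.46, SE 0.36; edgeR, adjusted p = 0.000703). The DrRyu mean then stayed between 16.2 and 18.6 CPM up to 72 hpf, and no later step passed. In the S libraries, *tie1* was at 7.30 through 17.9 to 22.4 CPM at 96 hpf, against 4.25, 5.52, 8.14, 7.19 and 10.8 CPM at 15 ss (log2 fold change 1.21, SE 0.42; edgeR, adjusted p = 0.0137). With library totals alone, that last difference missed the threshold (edgeR, log2 fold change 0.93, adjusted p = 0.0642).

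*tek*, the receptor of the angiopoietins, rose up to 24 hpf in the plain libraries. It was at 0 in 4 of 8 plain libraries of 6 ss and averaged 0.72 ± 1.01 CPM there, 1.15 ± 0.98 at 15 ss, 3.18 ± 2.34 at 20 ss, 6.93 ± 2.20 at 24 hpf, 3.60 ± 2.58 by 48 hpf, 2.86 ± 1.72 by 72 hpf and 3.58 ± 1.68 at 96 hpf (SD, n = 8, and n = 4 at 15 ss). The highest mean was that of 24 hpf, where the libraries held 4.09 through 7.25 to 10.9 CPM, against 0 through 0.22 to 2.59 CPM at 6 ss, without overlap. The rise was 9.13-fold, with a 95% interval from 1.52 to 4.86 on the log2 scale (log2 fold change 3.19, SE 0.85; edgeR, adjusted p = 0.00142). All 8 libraries of 96 hpf were below the median of 24 hpf, but the difference missed the threshold in the common fit (log2 fold change -0.95, SE 0.76; edgeR, adjusted p = 0.332). Across the DrRyu libraries, *tek* averaged 0.76 ± 1.29 CPM at 20 ss and 1.34 to 3.59 CPM at the 4 later stages, with 11 of 40 libraries at 0, and the test over all stages did not pass (edgeR, adjusted p = 0.142). Among the S libraries, its mean was lowest at 6 ss (0.41 CPM) and highest at 96 hpf (2.08 CPM), with 11 of 29 libraries at 0. The test over all S stages passed (edgeR, adjusted p = 0.0449), but no S step was called for *tek*.

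*cdh5*, the endothelial adherens junction cadherin, had the largest fitted rise of the 9 genes other than *she*. The plain libraries averaged 0.89 ± 0.95 CPM at 6 ss, 1.23 ± 0.69 at 15 ss, 7.75 ± 4.83 at 20 ss, 12.0 ± 2.07 at 24 hpf, 14.5 ± 3.34 by 48 hpf, 13.8 ± 2.37 by 72 hpf and 14.4 ± 4.5 at 96 hpf (SD, n = 8, and n = 4 at 15 ss). It was the only endothelial gene of the 10 that rose between neighbouring stages of the plain libraries in the common fit. At 20 ss, the libraries held 0.84 through 8.35 to 15.6 CPM, against 1.85, 1.67, 0.32 and 1.09 CPM in the 4 libraries of 15 ss. Of the 8 libraries of 20 ss, 7 were above all 4 of 15 ss (log2 fold change 2.62, SE 0.55; edgeR, adjusted p = 0.000315). From 24 hpf on, the mean stayed between 12.0 and 14.5 CPM. The whole difference of 24 hpf over 6 ss was 13.6-fold, at 9.40 through 11.7 to 15.7 CPM against 0 through 0.80 to 2.61 CPM, without overlap (log2 fold change 3.76, SE 0.46; edgeR, adjusted p = 1.3e-12).

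In the S libraries, *cdh5* averaged 1.07 ± 0.98 CPM at 6 ss, 3.08 ± 2.20 at 10 ss, 4.34 ± 0.86 at 15 ss and 15.8 ± 6.34 at 96 hpf (SD, n = 8, and n = 5 at 15 ss). The 5 libraries of 15 ss held 2.97, 5.19, 4.07, 4.80 and 4.64 CPM, against 0 through 0.94 to 3.05 CPM at 6 ss, and 4 of the 5 were above the highest of 6 ss (log2 fold change 1.90, SE 0.49; edgeR, adjusted p = 0.00418). It was the only one of the 10 genes called at 15 over 6 ss in the S libraries in the common fit, where 7.18% of all genes were. With the S libraries fitted alone, *etv2* was called as well (log2 fold change -0.44; edgeR, adjusted p = 0.0454). *cdh5* rose again at 96 hpf over 15 ss, with all 8 libraries above all 5 (log2 fold change 1.81, SE 0.44; edgeR, adjusted p = 0.00028). In the DrRyu libraries, the mean was 2.86 ± 2.39 CPM at 20 ss, 13.9 ± 6.55 at 24 hpf, 15.9 ± 3.59 at 32 hpf, 20.0 ± 5.89 by 48 hpf and 17.0 ± 7.19 by 72 hpf (SD, n = 8). The rise came at 24 hpf over 20 ss, at 2.94 through 15.0 to 20.5 CPM at 24 hpf against 0.28 through 2.40 to 6.56 CPM at 20 ss, and 7 of 8 libraries of 24 hpf were above the highest of 20 ss (log2 fold change 2.23, SE 0.37; edgeR, adjusted p = 2.7e-07).

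*egfl7*, which encodes a secreted protein of the vessel wall that acts in lumen formation, passed 1 test between stages. The plain libraries averaged 3.79 ± 1.67 CPM at 6 ss, 4.99 ± 2.29 at 15 ss, 8.48 ± 2.53 at 20 ss, 9.30 ± 1.63 at 24 hpf, 6.37 ± 1.77 by 48 hpf, 4.58 ± 1.65 by 72 hpf and 4.83 ± 3.92 at 96 hpf (SD, n = 8, and n = 4 at 15 ss). It rose at 24 hpf over 6 ss, at 6.60 through 9.34 to 11.4 CPM against 1.91 through 3.11 to 6.67 CPM, with 7 of 8 libraries of 24 hpf above the highest of 6 ss (log2 fold change 1.28, SE 0.50; edgeR, adjusted p = 0.0392). With library totals alone, the log2 fold change was 0.98 and the adjusted p 0.121, and with the replicate number as a block they were 1.21 and 0.0562. *egfl7* was the only gene of the 10 that did not pass the test over all stages in any of the 3 sets (edgeR, adjusted p = 0.122 in the plain, 0.551 in the S and 0.232 in the DrRyu libraries).

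*she*, which encodes an SH2 adaptor protein that is used as a marker of developing vessels, was near the limit of detection. It had a count in 22 libraries, and its highest value was 45 counts in 1 DrRyu library of 32 hpf. None of the 8 plain libraries of 6 ss held a count, which allows up to 0.15 CPM over that group (3 counts), and the plain libraries of 24 hpf held 5 counts in 2 libraries. The S libraries of 96 hpf held 11 counts, 7 and 4 of them in 2 libraries, against 0 in the 5 S libraries of 15 ss, which allows up to 0.193 CPM. edgeR called that difference (adjusted p = 0.0243), but one of the 2 libraries was the shallowest of the series with 866854 counts, and without it the adjusted p was 0.0620. Without the fifth S library of 15 ss it was 0.0502. No fold is given for *she*, and no direction is read from it.

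*aplnrb* encodes an apelin receptor, which is read in endothelium and in early mesoderm. It fell at 24 hpf over 6 ss in the plain libraries. The plain libraries averaged 27.2 ± 7.49 CPM at 6 ss, 31.8 ± 4.01 at 15 ss, 17.9 ± 4.07 at 20 ss, 15.2 ± 3.04 at 24 hpf, 17.9 ± 5.03 by 48 hpf, 15.6 ± 2.60 by 72 hpf and 10.1 ± 2.41 at 96 hpf (SD, n = 8, and n = 4 at 15 ss). At 24 hpf, the libraries held 11.8 through 14.9 to 20.6 CPM, against 19.4 through 23.7 to 38.9 CPM at 6 ss, and 7 of 8 were under the lowest library of 6 ss (log2 fold change -0.83, SE 0.26; edgeR, adjusted p = 0.00666). All 8 libraries of 20 ss, at 11.7 to 21.7 CPM, were below the 4 libraries of 15 ss, at 32.1, 36.8, 27.0 and 31.5 CPM, but that step missed the threshold in the common fit (log2 fold change -0.82, SE 0.31; edgeR, adjusted p = 0.124). It passed with the plain libraries fitted alone (adjusted p = 0.00413).

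The S libraries held *aplnrb* at 30.2 ± 9.34 CPM at 6 ss, 23.5 ± 4.76 at 10 ss, 22.7 ± 6.73 at 15 ss and 13.0 ± 4.38 at 96 hpf (SD, n = 8, and n = 5 at 15 ss). The decrease at 96 hpf over 15 ss was 0.81 on the log2 scale (log2 fold change -0.81, SE 0.30; edgeR, adjusted p = 0.0226), with 7 of 8 libraries below all 5 of 15 ss. It was lost without the first library of 15 ss, which at 34.0 CPM was the highest of the 5 (log2 fold change -0.62, adjusted p = 0.114), and with DESeq2 (log2 fold change -0.54, adjusted p = 0.124). The DrRyu libraries held 7.12 ± 5.59 CPM at 20 ss, 7.84 ± 3.58 at 24 hpf, 6.75 ± 3.39 at 32 hpf, 11.1 ± 4.19 by 48 hpf and 12.2 ± 4.99 by 72 hpf (SD, n = 8), and the test over all 5 stages passed (edgeR, adjusted p = 0.0106). No single DrRyu step passed for *aplnrb*, the nearest being 48 over 32 hpf (log2 fold change 0.69), which DESeq2 called (log2 fold change 0.84, adjusted p = 0.00988).

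Over 24 hpf against 6 ss in the plain libraries, 8 of the 10 genes passed the test, against 32.3% of all genes. Among them, *kdrl*, *flt1*, *tie1*, *tek*, *cdh5* and *egfl7* rose (6 of 10, against 21.1% of all genes) and *etv2* and *aplnrb* fell (2 of 10, against 11.2%). The median log2 fold change of the 10 was 2.10, or 2.07 with *she* left out for want of a count at 6 ss, beside 0.18 over all genes. Of these genes, 5 had no overlap between the libraries of both stages: *kdrl*, *tie1*, *tek* and *cdh5* were higher in every library of 24 hpf, as were 12.4% of all genes, and *etv2* was lower in every library, as were 6.80%. At 96 against 24 hpf, *etv2* and *flt4* fell and none rose in the common fit (2 of 10 called, against 39.7% of all genes, and 20.2% called lower). The plain libraries fitted alone called more of the 10 over this span, and DESeq2 fewer. Those counts have no share of all genes beside them and are not read as a result. In *etv2*, the 96 hpf libraries held 4.36 through 13.2 to 17.5 CPM, against 28.9 through 31.9 to 56.0 CPM at 24 hpf (log2 fold change -1.67, SE 0.21; edgeR, adjusted p = 9.85e-12). The median of the 10 was -0.40, beside 0 over all genes, and for *kdrl*, *tie1* and *cdh5* the 95% intervals on the log2 scale ran from -0.69 to 0.87, from -0.88 to 0.47 and from -0.41 to 0.94.

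**Figure D2:**
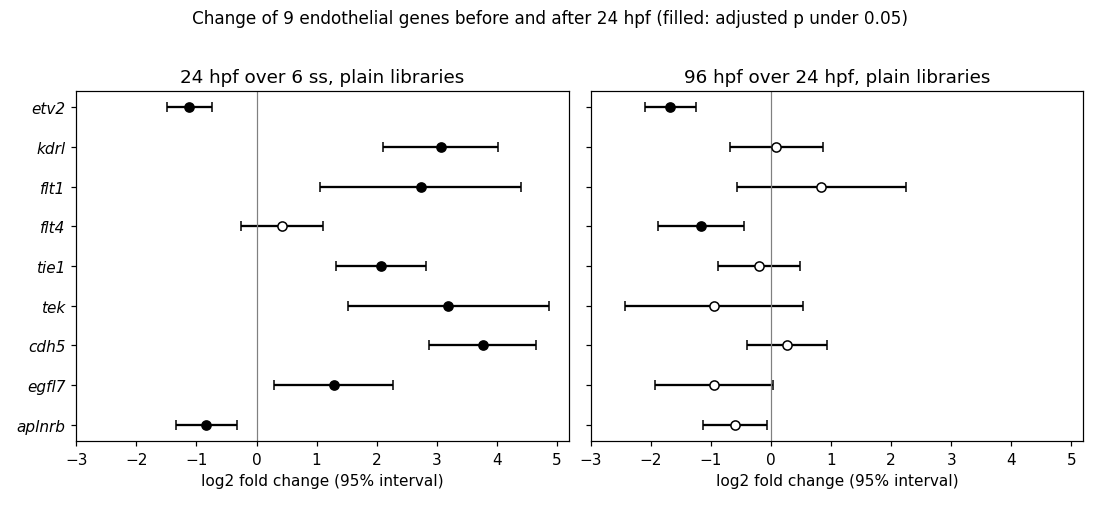
Log2 fold change (x axis) of 9 endothelial genes (rows, without *she*) at 24 hpf over 6 ss, left, and at 96 hpf over 24 hpf, right, in the plain libraries. Whiskers are 95% intervals and filled points have an edgeR adjusted p under 0.05. On the left, 6 genes are higher at 24 hpf and *etv2* and *aplnrb* are lower, and on the right only *etv2* and *flt4* are called.

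Between neighbouring stages, 13 of 130 tests of the 10 genes passed, 5 of them downward and 8 upward, with *she*, from which no direction is read, counted among the 8. The plain libraries gave 3 of 60, which were *cdh5* at 20 over 15 ss (4.10% of all genes called), *etv2* at 24 hpf over 20 ss (13.5%) and *etv2* at 48 over 24 hpf (26.1%). The DrRyu libraries gave 4 of 40, which were *tie1*, *cdh5* and *etv2* at 24 hpf over 20 ss (27.0%) and *kdrl* at 32 over 24 hpf (12.1%). The remaining 6, out of 30, came from the S libraries at 96 hpf over 15 ss, a wide step at which 43.0% of all genes were called. In the common fit, edgeR called none of the 10 at 15 over 6 ss, 72 over 48 hpf and 96 over 72 hpf in the plain libraries (2.71%, 8.17% and 5.04% of all genes called), with 0, 0 and 2 genes at an unadjusted p under 0.05 and none called by DESeq2. The plain libraries fitted alone, which also called more of all genes, gave 1 of the 10 at 96 over 72 hpf. Counts at an unadjusted p, here and below, have no share of all genes beside them and are not read as a result. In the S libraries edgeR called none at 10 over 6 ss and 15 over 10 ss (1.65% and 1.74%), with 4 and 0 genes at an unadjusted p under 0.05. DESeq2 called *cdh5* at the first (log2 fold change 1.47, adjusted p = 0.0238) and none at the second. The S libraries fitted alone, which also called more of all genes, gave 1 of the 10 at 10 over 6 ss. Of the DrRyu steps, none was called by edgeR at 48 over 32 hpf and 72 over 48 hpf (19.4% and 18.1%), with 1 and 2 genes at an unadjusted p under 0.05, and DESeq2 called 1, *aplnrb*, at the first and 0 at the second. Over the wider span of 48 over 24 hpf in the DrRyu libraries, edgeR called none of the 10 (27.4% of all genes), with 1 at an unadjusted p under 0.05, and DESeq2 called none. Over all stages of a set, 8 of 10 genes passed in the plain libraries (64.5% of all genes), 7 in the S libraries (55.0%) and 7 in the DrRyu libraries (62.1%), *she* among the 7 in both of those sets.

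Stages shared by library sets gave a comparison of the same gene at the same labelled stage. The year differed between the DrRyu and the plain libraries. Between the S and the plain libraries the year was the same and the number used differed at each shared stage. These and whatever else set the sets apart cannot be told apart. At 20 ss, *etv2*, *cdh5* and *aplnrb* were lower in the DrRyu than in the plain libraries, and none was higher (3 of 10 called, against 18.9% of all genes, and 10.4% called lower). *etv2* held 16.5 through 37.7 to 53.8 CPM in the DrRyu libraries and 61.8 through 66.0 to 90.7 CPM in the plain libraries, without overlap (log2 fold change -1.03, SE 0.19; edgeR, adjusted p = 1.21e-05). *aplnrb* held 1.70 through 5.43 to 16.4 CPM in the DrRyu libraries and 11.7 through 19.3 to 21.7 CPM in the plain libraries (log2 fold change -1.32, SE 0.27; edgeR, adjusted p = 8.58e-05). For *cdh5*, all 8 DrRyu libraries, at 0.28 to 6.56 CPM, were under the median of the plain libraries, 8.35 CPM (log2 fold change -1.37, SE 0.37; edgeR, adjusted p = 0.0043). The median of the 10 was -0.97, beside 0 over all genes. Markers of some other tissues moved with this difference. The summed CPM of 9 erythroid markers was 96.1 to 183 in the DrRyu and 328 to 472 in the plain libraries of 20 ss. That of 7 heart muscle markers was 123 to 681 in the DrRyu and 943 to 1094 in the plain libraries, and that of 8 skeletal muscle markers 212 to 346 and 578 to 696. The sums of neuron markers (95.01 to 156 in the DrRyu and 119 to 158 in the plain libraries), myeloid markers (15.5 to 35.0 and 18.4 to 29.8) and mural markers (64.3 to 141 and 111 to 155) overlapped. A sum can rest mostly on 1 gene, as the heart muscle and mural sums did in the plain libraries of 24 hpf. The myeloid sum did so in those of 6 ss, on *lcp1*. These sums are therefore not read as amounts of a tissue. The part of these markers in the difference was not tested.

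At 24 hpf, *etv2* and *aplnrb* were again lower in the DrRyu libraries (2 of 10, against 19.0% of all genes, and 13.0% called lower). *etv2* held 9.27 through 23.7 to 32.7 CPM there, against 28.9 through 31.9 to 56.0 CPM in the plain libraries (log2 fold change -0.72, SE 0.20; edgeR, adjusted p = 0.00385), and 7 of 8 DrRyu libraries were under the lowest plain library. *aplnrb* held 3.30 through 7.38 to 14.0 CPM in the DrRyu libraries and 11.8 through 14.9 to 20.6 CPM in the plain libraries (log2 fold change -0.94, SE 0.27; edgeR, adjusted p = 0.00594). All 8 DrRyu libraries also held less *tek* than any plain library, at 0 through 2.52 to 4.02 CPM against 4.09 through 7.25 to 10.9 CPM, but this missed the threshold (log2 fold change -1.69, SE 0.76; edgeR, adjusted p = 0.109). The summed erythroid markers were 281 to 3379 CPM in the DrRyu and 4007 to 5030 CPM in the plain libraries of 24 hpf. Heart muscle markers (695 to 1876 and 2195 to 2600) and mural markers (63.4 to 157 and 158 to 210) were also lower without overlap, and skeletal muscle markers (2061 to 4829 and 4750 to 6808), neuron markers (178 to 295 and 272 to 310) and myeloid markers (43.2 to 146 and 43.6 to 58.5) overlapped. In the plain libraries of 24 hpf, *actc1a* alone averaged 2210 CPM and *notch3* 165 CPM. The heart muscle and the mural sum were thus each mostly 1 gene there, and neither is read as an amount of its tissue. The part of all these markers in the differences was not tested. edgeR called none of the 10 between these sets at 48 and 72 hpf (14.1% and 13.7% of all genes), with 2 and 1 genes at an unadjusted p under 0.05. DESeq2 called 1 (*aplnrb*, log2 fold change -0.68, adjusted p = 0.0499) and 0. Between the S and the plain libraries edgeR called none at 6 ss, 15 ss and 96 hpf (0.541%, 0.804% and 1.28%), with 3, 1 and 1 genes at an unadjusted p under 0.05. DESeq2 called 0, 1 and 0. The 1 was *cdh5* at 15 ss, where the 5 S libraries were all above the 4 plain libraries (log2 fold change 1.80, SE 0.58; edgeR, adjusted p = 0.158; DESeq2, log2 fold change 1.85, adjusted p = 0.0289). The summed erythroid markers were 115 to 259 CPM in the S and 60.1 to 81.9 CPM in the plain libraries of 15 ss. Heart muscle (692 to 832 and 403 to 493.5) and skeletal muscle markers (327 to 411 and 197 to 248) were also higher without overlap. So were neuron markers (101 to 131 and 71.8 to 100), each range with the S libraries first. The myeloid sum was lower (20.5 to 30.6 and 33.7 to 46.8), and mural markers overlapped (122 to 143 and 130 to 168). Of the myeloid markers, *csf1ra* and *mfap4* were at 0 in both groups and *mpeg1.1* in the plain libraries of 15 ss. The heart marker *myh6* was at 0 in both groups, and the sums are again not read as amounts of a tissue. The part of all these markers in the difference of *cdh5* was not tested.

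**Figure D3:**
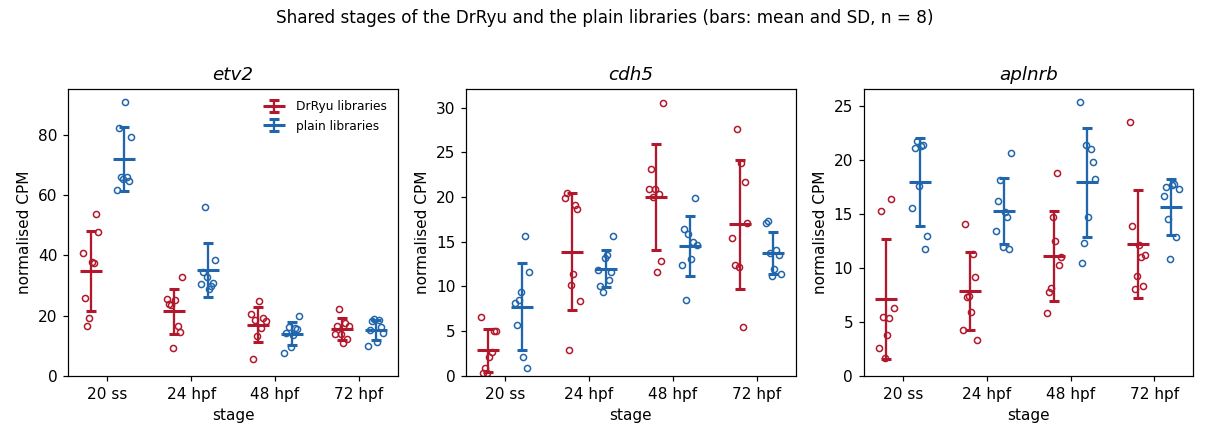
Normalised CPM (y axis, linear, from 0) of *etv2*, *cdh5* and *aplnrb* at the 4 stages (x axis) read in both the DrRyu and the plain libraries. Points are libraries, with the mean and SD of 8. At 20 ss, *etv2* lies at 16.5 to 53.8 CPM in the DrRyu libraries, under all plain libraries, and at 48 hpf the sets overlap, at 5.46 to 24.9 CPM in the DrRyu and 7.75 to 19.9 CPM in the plain libraries.

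The size of a step was compared between sets with an interaction term, and 2 of 50 such tests passed. The common fit gives all sets 1 spread per gene, while the DrRyu libraries varied more within groups. The SE of contrasts with DrRyu libraries may therefore be too small. For *cdh5*, the log2 fold change of 24 hpf over 20 ss was larger by 1.60 in the DrRyu than in the plain libraries (SE 0.50; edgeR, adjusted p = 0.0411), against 5.09% of all genes called. For *etv2*, the log2 fold change of 48 over 24 hpf was higher by 0.97 in the DrRyu libraries, a smaller decrease (SE 0.28; edgeR, adjusted p = 0.0277), against 4.59% of all genes called, and DESeq2 gave 0.80 with an adjusted p of 0.0705. The step of *tie1* at 24 hpf over 20 ss was higher by 0.92 in the DrRyu libraries and missed the threshold (SE 0.49, 95% interval from -0.05 to 1.88; edgeR, adjusted p = 0.31). For 15 over 6 ss and 96 hpf over 15 ss (S against plain) and for 72 over 48 hpf (DrRyu against plain), edgeR called 0.134%, 0.633% and 2.14% of all genes and none of the 10. At an unadjusted p under 0.05 there were 0, 3 and 0, and DESeq2 called none.

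Over the 9 genes other than *she*, the median coefficient of variation (CV) between libraries of a group was 58.6% in the DrRyu, 44.5% in the S and 34.5% in the plain libraries, where counting alone would give 15.5%, 22.3% and 19.0%. The widest groups were *tek* at 20 ss in the DrRyu libraries (CV 169%, 0 to 17 counts) and *flt1* at 6 ss in the plain libraries (CV 158%, 0 to 5 counts). *etv2* at 6 ss in the plain libraries had the smallest CV, 10.3%. Among the plain groups, 24 hpf had the lowest median CV (25.4%), and its libraries were also deep, with 5919077 to 9809464 counts.

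Some pairs of endothelial genes had a high r between groups and an r near 0 between libraries of a group. Over the 16 group means of log2(CPM + 1), Pearson's r was 0.94 for *kdrl* with *cdh5*, 0.92 for *tie1* with *cdh5* and 0.87 for *kdrl* with *tie1*, and it was -0.87 for *etv2* with *cdh5* and -0.83 for *etv2* with *kdrl*. Over all 36 pairs of 9 genes, r ranged from -0.87 to 0.94 with a median of 0.18. After the group means were subtracted, the same 36 pairs had r from -0.18 to 0.42 over all libraries, with a median of 0.02. *kdrl* with *cdh5* had 0.09 and *etv2* with *cdh5* 0.07. The pair with the highest value within groups was *etv2* with *egfl7*, at 0.42 over all libraries and at 0.38 in the plain, 0.06 in the S and 0.58 in the DrRyu libraries. These r are descriptions: the 16 points share stages and sets, genes of a library share its depth, and low counts weaken an r within groups.

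**Figure D4:**
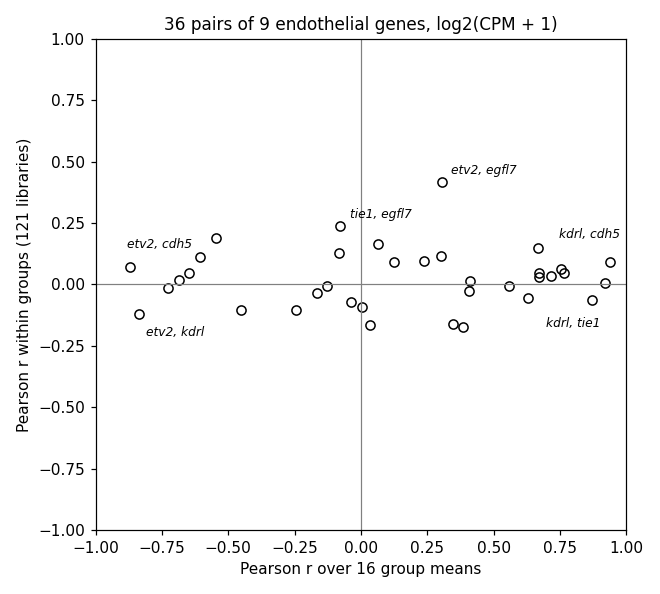
Pearson r of log2(CPM + 1) for the 36 pairs of 9 endothelial genes, over the 16 group means (x axis) and within groups over all libraries (y axis). Each point is a pair. The x values spread from -0.87 to 0.94, and the y values lie between -0.18 and 0.42, with *etv2* and *egfl7* the highest.

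Of all genes with a mean of at least 5 CPM, those with the course most like a given endothelial gene, over the same 16 group means, were as follows. For *etv2* they were *nol10* (r = 0.985), *wu:fi42e03* (0.978) and *pphln1* (0.977). For *cdh5* they were *si:dkey-102c8.3* (0.984), *apoa4b.1* (0.979) and *pank4* (0.979), and for *kdrl* they were *si:dkey-28b4.7* (0.962), *postnb* (0.957) and the cardiac troponin gene *tnnt2a* (0.957). For *tie1* they were *vamp5* (0.948), *prcp* (0.934) and *mfsd8* (0.929). For *aplnrb*, *hnrnpa1a* (0.928) and *ss18* (0.926) were among them, and for *tek* they were *nmt1b* (0.937), *si:ch73-265d7.2* (0.928) and *klhl41b* (0.879). For *flt1* they were *smarca2* (0.929), *chst3b* (0.923) and *dlst* (0.912). *flt4* and *egfl7* had less close neighbours: *dbx1b* (0.865), *rps9* (0.827) and *phax* (0.825) for *flt4*, and *mmaa* (0.882), *trim109* (0.817) and *si:dkey-59l11.10* (0.807) for *egfl7*. Among the 10 endothelial genes, *flt1*, *tek* and *she* were under the cut of 5 CPM and could not be a neighbour. None of the others was among the 3 nearest of any.

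Other genes of the vascular pathways were read from 5 lists, of which 66 genes in all were tested. They were read in whole embryos, so their calls are not readings of endothelium alone. At 24 hpf over 6 ss in the plain libraries, 28 of the 66 rose, 9 fell and 29 did not pass, with a median log2 fold change of 0.81 beside 0.18 over all genes, of which 21.1% were called higher and 11.2% lower. Endothelial junction and surface genes gave the most, with 16 of 23 higher and 0 lower (median 2.12). The median was 2.09 with the 3 genes without a count at 6 ss set at their lower bound. Among these, *rasip1*, which encodes a regulator of lumen formation, averaged 7.25 ± 1.88 CPM at 24 hpf and *lyve1b*, a marker of lymphatic and venous endothelium, 2.963 ± 1.502 CPM (SD, n = 8), and both were at 0 in all 8 libraries of 6 ss. Endothelial transcription factors were split, with 6 of 19 higher and 6 lower (median -0.19). *fli1b*, an ETS factor, and *prox1a*, a lymphatic regulator, rose (log2 fold change 3.99, SE 0.78, and 3.00, SE 0.79; edgeR, adjusted p = 9.21e-06 and 0.00113), and the early factors *gata2a* and *lmo2* fell with *etv2* (log2 fold change -2.23, SE 0.24, and -1.56, SE 0.26). Of 11 VEGF ligands and co-receptors, 2 rose and 1 fell (median 0.40). The ligand gene *vegfab* averaged 4.41 ± 1.57 CPM at 24 hpf, against 0.45 ± 0.62 CPM at 6 ss (log2 fold change 3.22, SE 0.79). The co-receptor gene *nrp2a* held 20.7 ± 3.99 CPM against 6.53 ± 2.38 CPM (log2 fold change 1.67, SE 0.25) and *nrp2b* 23.8 ± 2.84 CPM against 52.3 ± 9.75 CPM (log2 fold change -1.14, SE 0.21).

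Partners of *tek* and *aplnrb* also differed by stage. Of 5 angiopoietin and apelin partners, 3 rose and 2 fell at 24 hpf over 6 ss (median 1.76). *angpt1*, the activating ligand of Tek, averaged 1.66 ± 0.63 CPM at 24 hpf, against 0.24 ± 0.68 CPM at 6 ss (log2 fold change 2.62, SE 1.08; edgeR, adjusted p = 0.0498). That call lay just under the threshold, from levels near 0 at 6 ss with an SD above their mean. *apln*, a ligand gene of the apelin receptors, averaged 10.5 ± 3.68 CPM at 24 hpf against 1.962 ± 1.313 CPM at 6 ss (log2 fold change 2.40, SE 0.41). *apela*, which encodes the other ligand, held 26.2 ± 4.04 CPM against 129 ± 19.5 CPM (log2 fold change -2.30, SE 0.30), and the paralogous receptor gene *aplnra* held 7.45 ± 2.06 CPM against 16.5 ± 3.39 CPM (log2 fold change -1.14, SE 0.36). The fall of *apela* went on at 96 hpf, to 1.93 ± 1.59 CPM (log2 fold change of 96 over 24 hpf -3.81, SE 0.42), and *apln* was higher at 96 than at 24 hpf, at 29.4 ± 8.48 CPM (log2 fold change 1.47, SE 0.33). Of 9 arteriovenous Notch and ephrin genes, only *dll4*, a Notch ligand gene of arteries and tip cells, rose at 24 hpf over 6 ss (log2 fold change 1.16, SE 0.39; median of the list 0.32).

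At 96 over 24 hpf in the plain libraries, 6 of the 66 rose, 14 fell and 46 did not pass, where 19.5% of all genes were called higher and 20.2% lower (median -0.17, or -0.15 with 2 genes without a fold left out, beside 0 over all genes). Endothelial junction and surface genes gave 2 higher and 6 lower of 23 (median -0.17). The 2 were *plvapa* and *plvapb*, which encode proteins of endothelial pores (log2 fold change 1.52, SE 0.63, and 1.38, SE 0.35). *cxcr4a* and *cldn5a* fell furthest (log2 fold change -3.01, SE 0.34, and -2.28, SE 0.63). Transcription factors gave 2 higher, the flow-responsive *klf2a* (log2 fold change 1.63, SE 0.20) and *mef2cb* (0.86, SE 0.24), of 19. The 4 that were lower were led by *lmo2* (-1.40, SE 0.29) and *hey2* (-1.20, SE 0.43) furthest (median -0.12). Of 9 Notch and ephrin genes, 0 rose and 3 fell, with *jag1a* at -1.78 (SE 0.37) and a median of -1.07. VEGF ligands and co-receptors gave 1 higher and 1 lower of 11, *vegfba* (1.18, SE 0.39) and *nrp2a* (-0.63, SE 0.24), with a median of 0.05 (0.23 with 1 gene left out), and angiopoietin and apelin partners gave 1 higher and 1 lower of 5 (median -1.34).

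Markers of other cell types moved over the same stages as the endothelial genes. At 24 hpf over 6 ss, 8 of 9 erythroid, 6 of 9 myeloid, 2 of 7 mural, 6 of 7 heart muscle, 8 of 8 skeletal muscle and 8 of 8 neuron markers rose in the plain libraries, and 1 myeloid marker, *lcp1*, fell, against 21.1% of all genes called higher and 11.2% lower. Their summed levels were 4007 to 5030 CPM at 24 hpf against 21.5 to 45.7 at 6 ss for erythroid, 43.6 to 58.5 against 51.5 to 70.6 for myeloid and 158 to 210 against 122 to 182 for mural markers. They were 2195 to 2600 against 227 to 264 for heart muscle, 4750 to 6808 against 131 to 196 for skeletal muscle and 272 to 310 against 43.2 to 58.8 for neuron markers. At 24 hpf, *actc1a* averaged 2210 CPM and *notch3* 165 CPM, most of the heart muscle and the mural sum. The marker *lcp1* averaged 52.7 CPM at 6 ss, most of the myeloid sum there, and 11.1 CPM at 24 hpf. The heart markers *myl7* and *cmlc1* averaged 52.6 and 75.7 CPM at 24 hpf, and 0.20 and 0.39 CPM at 6 ss. The heart muscle sum of 6 ss thus rested on other genes of the list. The mural markers *acta2* and *tagln* averaged 5.87 and 1.04 CPM at 24 hpf. At 96 over 24 hpf these 2 rose (log2 fold change 5.21 and 6.58), whereas *notch3* fell (log2 fold change -1.44). The myeloid markers *mpeg1.1* and *csf1ra*, the mural marker *tagln* and the heart marker *myh6* were at 0 in all plain libraries of 6 ss. At 96 over 24 hpf, 1 of 9 erythroid, 8 of 9 myeloid, 5 of 7 mural, 1 of 7 heart muscle, 7 of 8 skeletal muscle and 6 of 8 neuron markers rose, and 1, 0, 1, 3, 1 and 0 fell, against 19.5% and 20.2% of all genes. What part these tissues have in the CPM of the endothelial genes, which are shares of a library, was not tested.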

How the data were processed

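Whole-embryo RNA of RW zebrafish was read by Lasy-Seq, a 3′ RNA-Seq method, and 1 table of all libraries was analysed. According to the labels and the study's methods, the authors trimmed reads with fastp 0.21.0, mapped them to the GRCz11 cDNA set with BWA 0.7.17-r1188 and deposited the expected counts per gene that Salmon gave. Salmon was run with an unstranded setting, so antisense reads cannot be told apart. Genes carried symbols only. The metadata columns hold a year and a number used that differs between groups, as deposited by the authors. Values that were not whole (2 in the table) were rounded. The members and lists were chosen with earlier results of these data known. Groups were stage by library set (16 groups). All were fitted together with edgeR 4.0.16 (R 4.3.3, limma 3.58.1; TMM, quasi-likelihood test, two-sided) after a filter of 1 count in at least 8 libraries, which 21638 genes passed. The adjustment was that of Benjamini and Hochberg over all of them. The fit was run on simulated data with the same spread for every gene and library. In the real data the spread differs between genes and sets, so that run cannot check the shared spread. Levels and r came from Python 3.11.15, with a pseudocount of 1 for log2(CPM + 1). Intervals are the estimate plus or minus 1.96 SE. A group without a count was given a limit of 3 counts over the group, which covers counting error only.

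Besides the 10 genes, 125 genes in 11 lists were read, of which 115 were tested: VEGF ligands and co-receptors, angiopoietin and apelin partners, endothelial transcription factors, arteriovenous Notch and ephrin genes, endothelial junction and surface genes, and erythroid, myeloid, mural, heart muscle, skeletal muscle and neuron markers. From each list, called genes at the extremes of log2 fold change (2 at the top and 2 at the bottom) at 24 hpf over 6 ss and at 96 over 24 hpf in the plain libraries could be named, and for each endothelial gene the 3 most alike, of which 1 is not reported here. The alternatives were DESeq2 1.42.0, library totals in place of TMM, 2 other filters, each library set alone, a replicate block, pseudocounts, and leaving out libraries of 15 ss or the shallowest library.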

Additional observations from a re-analysis of the deposited data

Results flagged for a closer look

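In 15 of 155 pairs of a gene and a group of libraries, a single library stood well apart, where chance gives about 1 in 20. That rate need not hold where most libraries are at 0, as in *she*. The values are log2(CPM + 1). High libraries were the third plain library of 24 hpf in *etv2* (5.83, the others 4.90 to 5.30), and in *she* the eighth plain library of 72 hpf (0.49, 2 counts), the seventh S library of 6 ss (1.33, 4 counts), the third DrRyu library of 20 ss (0.54, 1 count) and the third DrRyu library of 48 hpf (0.70, 3 counts). Low libraries among the DrRyu libraries were the second of 48 hpf in *etv2* (2.69), the first of 72 hpf in *kdrl* (1.49) and the fifth of 48 hpf in *flt4* (0.87). Among the plain libraries they were the fifth of 48 hpf (1.03) and the second of 72 hpf (0.79) in *flt1*, the third of 48 hpf in *tie1* (1.73), and the third of 15 ss (1.38) and the second of 48 hpf (1.76) in *egfl7*. Among the S libraries they were the fifth of 96 hpf in *tie1* (3.05) and the fourth of 6 ss in *aplnrb* (3.63). No library was far in more than 1 gene.

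The step of *cdh5* at 24 hpf over 20 ss and that of *etv2* at 48 over 24 hpf differed between the DrRyu and the plain libraries, by 1.60 (SE 0.50; edgeR, adjusted p = 0.0411) and 0.97 (SE 0.28; edgeR, adjusted p = 0.0277) on the log2 scale. Both carry the limit of the shared spread given above.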

How the results depend on the processing

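No called log2 fold change of an endothelial gene reversed its direction under any alternative run. The log2 fold changes of single endothelial genes kept their side of the threshold in most alternatives. With library totals in place of TMM the median of all genes moved by -0.26 at 24 hpf over 20 ss and to -0.05 at 24 hpf over 6 ss in the plain libraries, and by 0.22 at 48 hpf between the DrRyu and plain libraries, and with DESeq2 by 0.45 at 96 over 24 hpf in the plain libraries. Of the 10 endothelial genes, each library set fitted alone called 3 at 20 over 15 ss (1 in the common fit), 2 at 24 hpf over 20 ss (1), 1 at 96 over 72 hpf (0) and 4 at 96 over 24 hpf (2) in the plain libraries, 1 at 10 over 6 ss (0) and 2 at 15 over 6 ss (1) in the S libraries, and 0 at 32 over 24 hpf (1) in the DrRyu libraries. DESeq2 called 2 at 20 over 15 ss and 1 at 96 over 24 hpf in the plain libraries, 1 at 10 over 6 ss in the S libraries, 1 at 48 over 32 hpf in the DrRyu libraries, 1 at 15 ss between the S and plain libraries, 1 at 48 hpf between the DrRyu and plain libraries (0 in the common fit), and 0 for the difference of the 48 over 24 hpf step (1). Library totals gave 0 at 32 over 24 hpf and 1 at 48 over 32 hpf in the DrRyu libraries, and 1 each at 48 and 72 hpf between the DrRyu and plain libraries (*tie1*, 0 in the common fit). No filter and filterByExpr each gave 1 at 48 over 32 hpf. The counts of all genes under these fits follow below only where they moved clearly. The counts of the 10 are thus not read against a background.

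Of all genes, each library set alone called 1748 at 15 over 6 ss (587 in the common fit), 2436 at 20 over 15 ss (887), 4843 at 24 hpf over 20 ss (2921), 3605 at 72 over 48 hpf (1768) and 2681 at 96 over 72 hpf (1090) in the plain libraries, and 836 at 10 over 6 ss (357), 722 at 15 over 10 ss (377) and 2626 at 15 over 6 ss (1554) in the S libraries. In the DrRyu libraries it called 2885 at 24 hpf over 20 ss (5850), 521 at 32 over 24 hpf (2614), 1522 at 48 over 32 hpf (4196), 1183 at 72 over 48 hpf (3907) and 2885 at 48 over 24 hpf (5938). Each such fit estimates the spread from its own libraries. DESeq2 called 583 at 10 over 6 ss (357) and 596 at 15 over 10 ss (377) in the S libraries, 193 at 6 ss (117), 331 at 15 ss (174) and 509 at 96 hpf (278) between the S and plain libraries, and 89 (29) and 310 (137) for the difference of the 15 over 6 ss and 96 hpf over 15 ss steps. For the differences between the DrRyu and plain libraries, library totals gave 1683 at 48 over 24 hpf (994), and filterByExpr gave 288 at 72 over 48 hpf (463).

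Leaving out each library of 15 ss in turn gave 344 to 441 genes at 15 over 6 ss in the plain libraries (587), and for the differences between the S and plain libraries 13 to 31 at 15 over 6 ss (29) and 84 to 138 at 96 hpf over 15 ss (137). The lowest of these came without the fourth, the third and the first plain library. Replicate numbers did not pair the libraries: same-numbered libraries had correlations of their deviations from -0.063 to 0.095. With a replicate block, 292 genes were called for the difference of the 72 over 48 hpf step (463), and *egfl7* at 24 hpf over 6 ss was lost (log2 fold change 1.21; edgeR, adjusted p = 0.0562). *she* at 96 hpf over 15 ss was lost without the fifth S library of 15 ss (edgeR, adjusted p = 0.0502). Depth limits *she*, *flt1* and *tek* most.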
